A study of Mus musculus with 6 samples.

Results

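The glutathione S-transferases were followed in mouse colon through 10 genes: Gsta2, Gsta3, Gsta4, Gstm1, Gstm2, Gstm3, Gstp1, Gsto1, Gstt1 and Gstk1. They were chosen by symbol, with every probe that the platform annotation assigns to them, which gave 17 of the 45281 probes on the array. The samples were colon from C57BL/6 mice aged 6 weeks, 3 labelled control and 3 labelled Setd2 KO (knockout of Setd2, the enzyme that trimethylates a lysine of histone H3 in transcribed genes). Total RNA of each sample was hybridised to 1 Illumina bead array. Neither the way the deletion was made, nor the cells it reached, nor what allele the controls carried is stated in the labels. They call the samples replicates without saying that each came from its own animal, so any p-value here reflects only how these samples varied.

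Glutathione S-transferases join the thiol of the tripeptide glutathione to electrophilic compounds, which makes these more water-soluble and ready for export from the cell. The cytosolic enzymes work as dimers and fall into classes named alpha (Gsta), mu (Gstm), pi (Gstp), omega (Gsto) and theta (Gstt), while the kappa enzyme Gstk1 has a separate fold and sits in mitochondria and peroxisomes. The epithelium of the gut expresses several classes, and many of the genes respond to the transcription factor NRF2 and to xenobiotic receptors.

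None of the 10 genes passed the test between KO and control, as for 0% of all probes tested. For Gstt1, Gsto1, Gstp1 and Gsta2, higher in KO, the difference shrank when 1 control array, control 2, was left out. It shrank also for Gsta4, Gstm3 and Gstk1, lower in KO, and grew for Gsta3, Gstm1 and Gstm2. On the log2 scale of normalized intensity, 7 genes had a higher mean in KO on their brightest probe (Gstt1, Gsto1, Gstp1, Gsta2, Gsta3, Gstm1 and Gstm2). The other 3 had a lower one (Gsta4, Gstm3 and Gstk1). By probe, the mean was higher in KO for 11 of 17, against 47.9% of all probes. The median log2 difference of the 10 brightest probes was 0.73, and 0.39 without control 2. Over all 17 probes of these genes it was 0.59, and 0.26 without control 2. Over all 27168 probes that passed the filter on dim values (a mean log2 intensity above 0.96) it was -0.04, and 0.0021 without control 2. This last median is taken by probe, so its match is that of the 17 probes. Gstp1 was the only one of the 10 whose KO arrays all lay above all control arrays on its brightest probe. That separation was shown by 4.02% of all probes. Leaving out control 2 could not undo it. Gstm1 then also had all KO arrays above both remaining controls, as had 8.15% of all probes.

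A pair of checks comes before the values of single genes. The brightest Setd2 probe read 8.55, 9.23 and 8.36 in control and 7.65, 6.89 and 7.19 in KO, so its groups did not overlap. Its log2 difference was -1.47 (limma SE 0.47, adjusted p = 0.847), and -1.21 without control 2. The groups of both dimmer Setd2 probes overlapped, with differences of -0.02 and -0.64. Without control 2 these were -1.72 and -0.93, and on each probe all KO arrays then lay below both remaining controls. Groups apart in either direction were found for 16.3% of all probes without control 2. Where the probes lie relative to the deletion is not known. Of the 15 colon epithelium markers, 14 were on the array and all of these were well above the dim probes, with list means of 9.79 to 10.82 in control and 11.00 to 11.16 in KO. These means did not overlap between the groups. Smooth muscle markers had list means of 9.36 to 10.14 in control and 9.82 to 10.67 in KO, and stroma markers of 5.11 to 7.13 and 6.46 to 7.71. The part of these tissues in the transferase levels was not tested. In such bulk RNA, fewer cells of a type and less RNA per cell cannot be told apart.

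Control 2 stood apart from the other 5 arrays in a way that bears on every gene described here: probes for the same gene disagreed on it. Among 2515 genes with at least 2 bright probes, the gap between the brightest pair of probes on control 2 departed by over 1 log2 unit from its median on the other arrays in 54.6% of genes. On the other 5 arrays the share was 3.22% to 6.12%. Control 2 also had 41.6% of its probes at the lowest value of the table, an intensity of 1 (a log2 value of 0), against 33.5% to 36.9% on the others. Differences between KO and control are therefore given with and without this array.

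**Figure D1:**
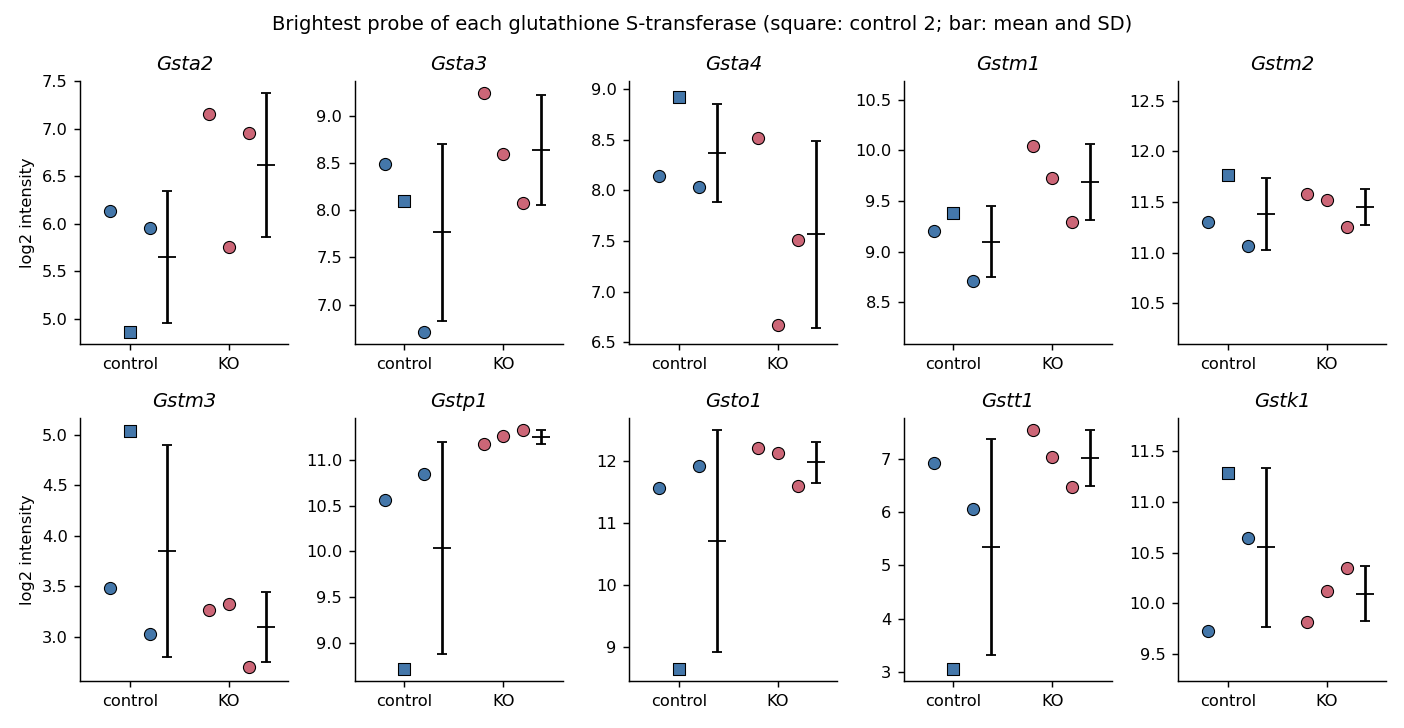
Log2 normalized intensity of the brightest probe of each of the 10 genes, 1 point per array, with control arrays in blue, KO arrays in red and control 2 as a square; black bars give the mean and SD of the 3 arrays, and each panel has its own axis. Control 2 is the lowest of the 6 arrays for 4 genes (Gsta2, Gstp1, Gsto1 and Gstt1) and the highest for 4 others (Gsta4, Gstm2, Gstm3 and Gstk1).

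The pi class gene Gstp1 encodes one of the more widely expressed transferases, known also for binding the stress kinase JNK. Its brightest probe (ILMN_1223230) read 10.56, 8.72 and 10.84 in control and 11.17, 11.26 and 11.32 in KO. The KO arrays lay within 0.15 log2 units of each other, while control 2 lay 1.98 below the mean of the other controls. Averaged over 3 arrays each, control stood at 10.04 ± 1.15 (SD, n = 3) and KO at 11.25 ± 0.08. The log2 difference was 1.21, or 2.31-fold (limma SE 0.65, adjusted p = 0.921), and 0.55, or 1.46-fold, without control 2 (SE 0.31). Its exact permutation p was 0.1, the smallest that 3 against 3 arrays allow.

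A second Gstp1 probe (ILMN_2677046) measured 11.22, 5.34 and 11.57 in control and 11.80, 11.86 and 11.68 in KO. It too had all KO arrays above all controls, but control 2 was 6.05 log2 units below the other controls, far more than on the first probe. Its log2 difference of 2.40 became 0.38 without control 2. The third probe (ILMN_2793329) ranged from 3.43 to 5.35 in control and from 4.13 to 5.69 in KO, and its groups overlapped. Without control 2 the 3 probes differed by 0.27 to 0.55.

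Gstp1 has tandem copies, Gstp2 and Gstp3, as its next neighbours among the transferases in the RefSeq annotation. The 150 bases before the start of each (RefSeq, GRCm38.p6, minus strand, 5′ to 3′) are shown as a description. They were chosen after the values on control 2 were seen. There, probes of Gstp1 and Gstp2 lay below the mean of the other controls and that of Gstp3 did not. The 3 Gstp1 probes did so by unlike amounts, 1.98, 6.05 and 1.30 log2 units. No link between these sequences and the array values was tested. Capitals mark TGAGTCA, searched on both strands, the letters of an AP-1 site and part of the longer element bound by Maf proteins and NRF2.
Gstp1 (chr19:4037913-4038062): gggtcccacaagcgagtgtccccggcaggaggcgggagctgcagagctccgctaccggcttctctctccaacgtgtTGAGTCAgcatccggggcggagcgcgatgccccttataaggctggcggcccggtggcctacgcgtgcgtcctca
Gstp2 (chr19:4042222-4042371): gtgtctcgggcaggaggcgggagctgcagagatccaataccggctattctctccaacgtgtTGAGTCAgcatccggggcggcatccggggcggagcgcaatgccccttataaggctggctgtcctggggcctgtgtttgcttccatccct
Gstp3 (chr19:4059448-4059597): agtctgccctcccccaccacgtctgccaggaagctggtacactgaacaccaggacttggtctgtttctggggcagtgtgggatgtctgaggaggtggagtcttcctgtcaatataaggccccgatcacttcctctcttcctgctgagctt

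In a global alignment, Gstp1 and Gstp2 were identical in 71.5% of columns, and Gstp3 was identical to Gstp1 in 50.3% and to Gstp2 in 51.8%. The TGAGTCA letters began 74 bases before the start of Gstp1 and 89 before that of Gstp2, and were not in the Gstp3 window. Over all 32851 RefSeq promoter windows, which run from 250 bases before to 50 after a start, 5.2% held them. The looser antioxidant response element core TGACNNNGC, searched on both strands, was found in 12.4% of all windows. RefSeq windows were at hand for 9 of the 10 genes, and of their 10 windows 1 held that core (Gsta3) and 1 held TGAGTCA (Gstp1). A match is a description of the sequence, not a site of binding.

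Gstp2, chosen after its values were seen, measured 9.13, 2.66 and 9.51 in control and 9.56, 10.02 and 9.18 in KO. As for the second Gstp1 probe, control 2 was far below every other array. Its log2 difference was 2.49, and 0.27 without control 2. Gstp3, also chosen after its values were seen, measured 6.87, 6.97 and 6.35 in control and 7.12, 6.98 and 7.48 in KO, with no drop on control 2. Its difference was 0.46 (SE 0.43, limma adjusted p = 0.921), and 0.58 without control 2. Because Gstp1 and Gstp2 are close copies and the probe sequences were not used here, how far a probe reads one or the other cannot be told apart.

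The omega class gene Gsto1 encodes a transferase with a cysteine in its active site that acts on thiol exchange and on dehydroascorbate. Its single probe measured 11.58, 8.65 and 11.92 in control and 12.22, 12.12 and 11.59 in KO. Control 2 was 3.09 below the other controls, whose values overlapped with the KO arrays. The log2 difference was 1.26 (limma SE 0.91, adjusted p = 0.921), and 0.23 without control 2, with a 95% interval from -0.71 to 1.17.

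Gstt1, of the theta class that acts on small halogenated compounds, gave the largest difference among the 10 brightest probes and much the same picture. Its single probe measured 6.92, 3.06 and 6.05 in control and 7.53, 7.04 and 6.47 in KO. The difference of 1.66 (limma SE 1.02, adjusted p = 0.921) became 0.52 without control 2, with a 95% interval from -0.74 to 1.78. The control SD of 2.03 came from control 2, since the other controls were 0.87 apart.

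The mu class genes lie side by side in the annotation, in the order Gstm5, Gstm7, Gstm6, Gstm3, Gstm2, Gstm1 and Gstm4. Gstm1, a main mu enzyme of mouse liver, measured 9.20, 9.38 and 8.71 in control and 10.04, 9.73 and 9.29 in KO on its brightest probe. Control 2 was inside the span of the other arrays here. The log2 difference was 0.59 (limma SE 0.45, adjusted p = 0.921), and 0.73, or 1.66-fold, without control 2 (SE 0.39), when all KO arrays lay above both remaining controls. Its second probe was dim, at the floor on control 3, KO 1 and KO 3, with a control mean of 2.38 and a KO mean of 1.04.

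Gstm2 had 3 probes, and they showed the disagreement on control 2 within 1 gene. The brightest probe (ILMN_2624854) measured 11.30, 11.77 and 11.07 in control and 11.58, 11.52 and 11.25 in KO, with control 2 the highest array. The third (ILMN_2862470) measured 9.57, 6.44 and 8.90 in control and 9.78, 9.58 and 8.92 in KO, with control 2 the lowest by far. The gap between these probes was 5.33 on control 2 and 1.74 to 2.33 on the other arrays. With all arrays the 3 probes differed by 0.07, 0.08 and 1.13 between KO and control, and without control 2 by 0.26, 0.24 and 0.20. The 95% interval of the brightest probe without control 2 ran from -0.56 to 1.08, so that the miss of the threshold does not show equal levels.

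**Figure D2:**
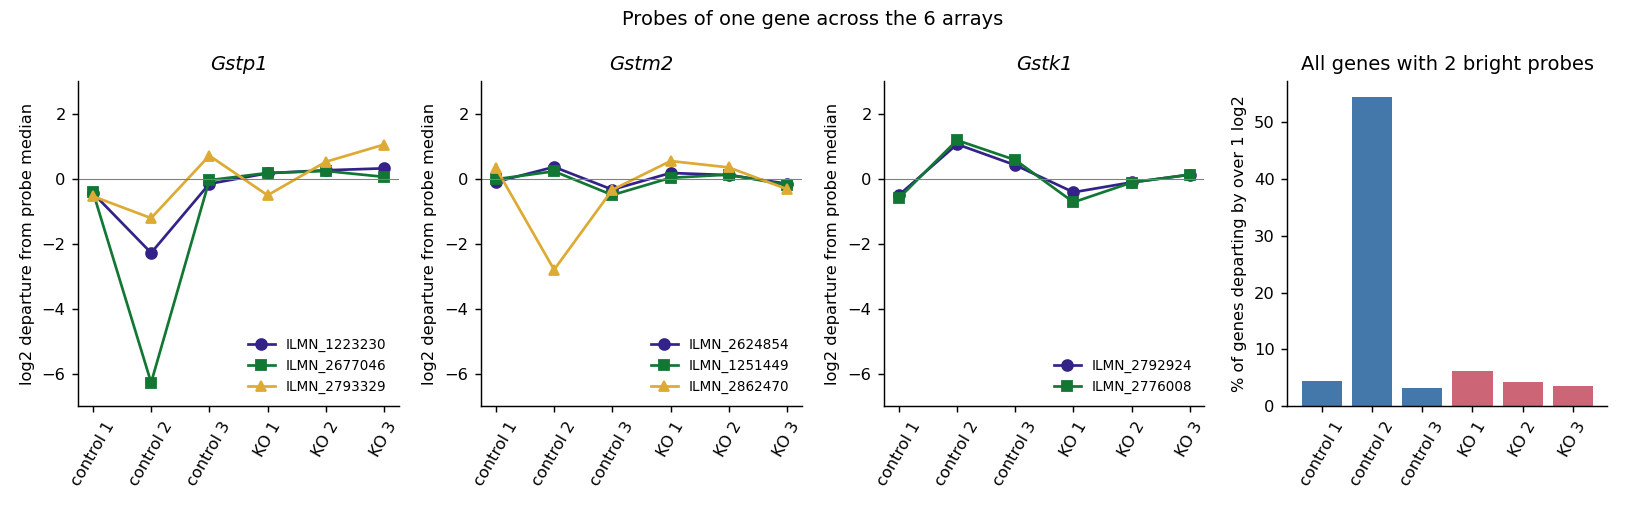
The first 3 panels show each probe's log2 departure from its own median over the 6 arrays for Gstp1, Gstm2 and Gstk1, 1 line per probe. The fourth shows, for each array, the percentage of 2515 genes whose brightest pair of probes departs by over 1 log2 unit from its usual gap. One Gstp1 probe falls to -6.28 and one Gstm2 probe to -2.81 on control 2, the Gstk1 probes stay together, and control 2 reaches 54.6% against at most 6.12% elsewhere.

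Gstm3 was dim, at 3.49, 5.03 and 3.03 in control and 3.26, 3.33 and 2.70 in KO. Control 2 was the highest array. The log2 difference of -0.75 (limma SE 0.63, adjusted p = 0.921) became -0.16 without it. Of the other mu genes, Gstm6, chosen after its values were seen, measured 5.97, 2.83 and 5.23 in control and 6.51, 6.12 and 4.98 in KO, a difference of 1.19 that became 0.27 without control 2. On control 2 the Gstm3 probe was thus high and this Gstm6 probe low. Probes of 1 gene, Gstm2, also lay on opposite sides there, so this is no contrast between genes.

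The alpha class holds enzymes with peroxidase activity on lipid hydroperoxides. Gsta2 measured 6.13, 4.86 and 5.96 in control and 7.15, 5.75 and 6.95 in KO. KO 2 lay below control 1 and control 3, so the groups overlapped also without control 2. KO minus control came to 0.97 (limma SE 0.60, adjusted p = 0.921), and 0.58 without control 2.

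Gsta3, the alpha enzyme known in mouse for conjugating aflatoxin epoxide, measured 8.48, 8.10 and 6.71 in control and 9.24, 8.60 and 8.07 in KO on its brightest probe. Here control 3 was the lowest array, not control 2. The log2 difference was 0.87 (limma SE 0.63, adjusted p = 0.921) and 1.04 without control 2, the largest of the 10 brightest probes once that array was left out. It became 0.35 without control 3. Its second probe was dim, at the floor on control 1 and KO 1, and differed by -0.07.

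Gsta4, the enzyme with a preference for the lipid peroxidation product 4-hydroxynonenal, went the other way. It measured 8.14, 8.92 and 8.03 in control and 8.51, 6.67 and 7.51 in KO. KO 2 and KO 3 lay below all control arrays and KO 1 lay among them. KO minus control came to -0.80 (limma SE 0.61, adjusted p = 0.921), and -0.52 without control 2. Without KO 2 it was -0.35.

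The kappa class gene Gstk1 encodes the mitochondrial and peroxisomal enzyme, also described in mouse as a helper of adiponectin assembly. Its brightest probe measured 9.73, 11.29 and 10.65 in control and 9.81, 10.12 and 10.35 in KO. Control 1 was the lowest and control 2 the highest array, so the controls spanned the KO arrays. Adipocyte markers, 6 of 7 on the array and 3 of them bright, had list means of 1.71, 4.88 and 4.71 in control and 2.63, 3.89 and 4.02 in KO, which put the 6 arrays in the same order, with Retn at the floor on at least 3 arrays. The share of all probes with this order was not counted, and control 2 was its highest array. The part of adipocytes in the Gstk1 level was not tested. The difference was -0.46 (limma SE 0.53, adjusted p = 0.922) and -0.09 without control 2. The second Gstk1 probe stayed near the first on every array, with a gap of 0.73 to 1.20. Its lowest array was KO 1 (8.62), below control 1 (8.74), so its order was not that of the adipocyte list. It differed by -0.62 and, without control 2, by -0.23.

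**Figure D3:**
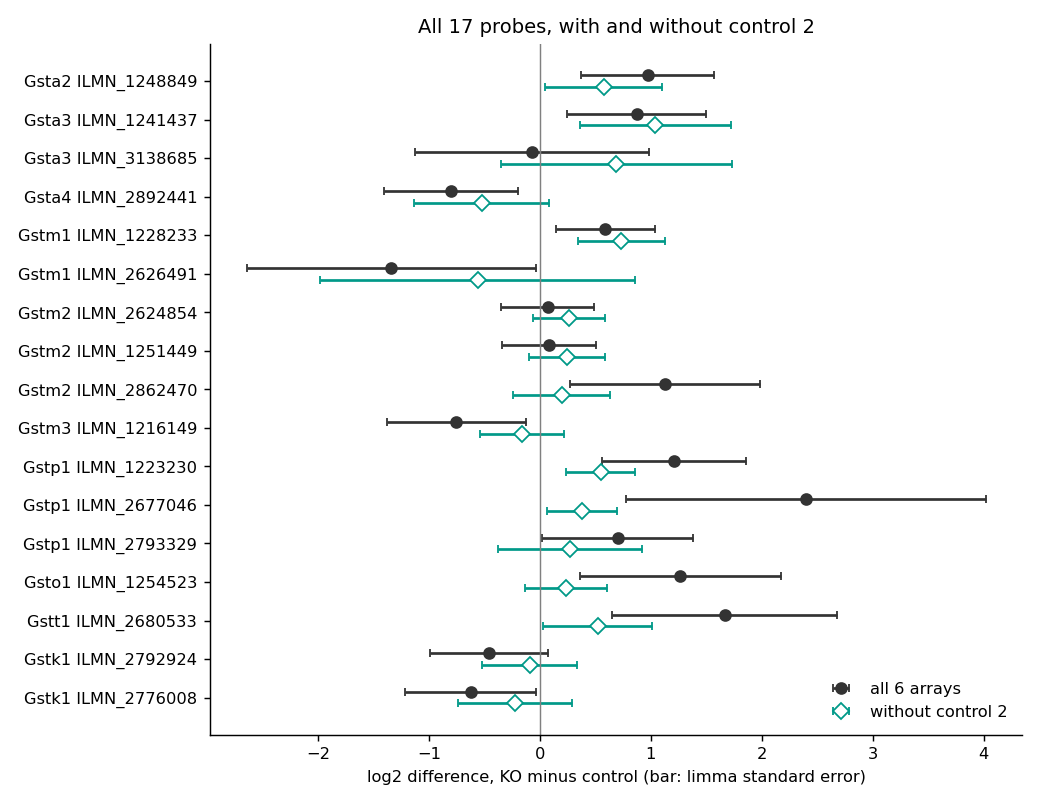
Log2 difference, KO minus control, of all 17 probes with limma's standard error, from all 6 arrays (filled circles) and without control 2 (open diamonds). The second Gstp1 probe moves from 2.40 to 0.38, Gstt1 from 1.66 to 0.52 and Gsto1 from 1.26 to 0.23, while the brightest Gsta3 and Gstm1 probes move little.

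Counted over probes, all 17 passed the filter on dim values. None reached an adjusted p of 0.05 in limma, as for 0% of all 27168 probes, and 0 had an unadjusted p under 0.05 against 4.39% of all probes. Their unadjusted p lay between 0.106 and 0.948. Both probes with all KO arrays above all controls were Gstp1's, 2 of 17 against 4.02% of all probes, and those 2 were also the only ones apart in either direction, against 9.02%. Means were higher in KO for 11 of 17 against 47.9% of all probes. Without control 2, 0 of 17 passed (0% of all), 0 had an unadjusted p under 0.05 (5.15% of all), 3 lay wholly above both controls (8.15% of all) and no other was apart in either direction (16.3% of all), and 12 had a higher mean (50.2% of all). Control 2 lay at least 1 log2 unit below the mean of the other controls for 7 of 17 probes, against 28.7% of all probes, and at least 1 above for 5, against 30.9%.

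Some of the genes had a like pattern over the 6 arrays and others an opposite one, in part through control 2. Between the brightest probes of Gstp1, Gsto1 and Gstt1, Pearson's r lay between 0.93 and 0.96 over 6 arrays, but between 0.19 and 0.50 over the 5 arrays without control 2. Gsta3 and Gstm1 had an r of 0.92, and 0.93 without control 2. Gstm1 and Gstm2 had an r of 0.71, and 0.98 without it. Other pairs ran opposite to each other. Gstm3 and Gstp1 had an r of -0.95, and -0.53 without control 2, and Gstt1 and Gstk1 one of -0.93, and -0.87 without it. These values describe few arrays, which all genes share along with their normalization. After centring each gene, the mean over the 10 came to 0.05, -0.53 and -0.21 in control and 0.54, 0.11 and 0.04 in KO, so that KO 3 and control 1 were level. Of 8617 other bright genes, those most like this mean by Pearson's r over 6 arrays were Nme4, Syf2, Sgpl1, Abcf3 and Hagh, with r from 0.98 to 1.00. These are the best of many genes on 6 arrays, and what r such a choice gives by itself was not computed.

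Markers of other tissues varied within the groups, and some shared their lowest or highest array of a group with some members. For 4 of the 10 genes (Gsta3, Gstm1, Gstm2 and Gstm3) control 3 was the lowest control and KO 3 the lowest KO array. By probe this order was found for 5 of 17, ties left out, against 8.35% of all probes. Pancreatic acinar markers, 8 of 9 on the array and all 8 bright, had list means of 12.17, 9.09 and 1.42 in control and 9.26, 8.65 and 0.78 in KO, thus lowest on the same arrays. The acinar list was highest on control 1, and none of these 4 genes was. The part of acinar cells in the levels of these genes was not tested. Small intestinal enterocyte markers, 14 of 14 on the array and 8 bright, had a list mean of 6.53 on KO 1 and of 3.04 to 4.29 on the other arrays, with Fabp2 at the floor on all 6 and Fabp1 and Lct on at least 3. KO 1 was the highest KO array for 7 of the 10 genes (Gsta2, Gsta3, Gsta4, Gstm1, Gstm2, Gsto1 and Gstt1), and by probe for 8 of 17 against 34.3% of all probes. The part of these cells in that was not tested either. Leukocyte markers, 6 of 9 on the array and 4 bright, had list means of 3.73 to 4.91 in control and 4.24 to 4.42 in KO. Liver markers were low on all arrays, at 2.47 to 2.89, with Alb and Tat at the floor on at least 3 arrays.

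The remaining glutathione transferases, 18 of 19 above the filter, were higher in KO for 10 and lower for 8, and higher for 13 without control 2. The median log2 difference was 0.14 in either case, and 0 passed. The 4 brightest were the membrane-bound Mgst3, Mgst2 and Mgst1, which differed by -0.10, -0.14 and 0.50, and the theta gene Gstt3, which differed by 0.09. Without control 2 these became 0.05, 0.18, 0.09 and 0.30.

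Among 13 genes for glutathione synthesis and turnover, 6 were higher and 7 lower, with a median of -0.03 (-0.09 without control 2) and 0 past the test. Gss, which adds the last residue of glutathione, differed by 0.44, and Gclm, the modifier subunit of the rate-limiting ligase, by 0.12. Without control 2 they differed by 0.11 and 0.03. Chac1, which degrades glutathione, and Oplah, which opens 5-oxoproline, differed by -0.79 and -0.65, or by -0.28 and -0.50 without that array. The smallest adjusted p in any of these lists, 0.482, belonged to Ggt5, a gamma-glutamyl transferase chosen after its values were seen. All 3 control arrays listed its brightest probe at the floor, and KO read 1.84, 3.44 and 2.47. The probe thus passed the filter only through its KO arrays, and the floor left the controls without spread. Its p therefore carries no weight. The other Ggt5 probes were below the filter and differed by -1.51, 1.52 and 1.05.

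Among 13 genes that use glutathione in redox reactions, 7 were higher and 6 lower, with a median of 0.18 (0.075 without control 2) and 0 past the test. The epithelial peroxidase Gpx2 measured 13.36, 13.63 and 13.51 in control and 12.72, 13.45 and 13.69 in KO, a difference of -0.21, or -0.15 without control 2. Gpx1 measured 12.77, 8.33 and 12.43 in control and 12.83, 12.56 and 12.65 in KO, with a difference of 1.50 that became 0.08 without control 2. Gpx4, the peroxidase of membrane lipids, differed by 0.18 and the glutaredoxin Glrx by 0.26. Without control 2 Gpx4 turned to -0.06 and Glrx was at 0.18.

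For conjugate export and the steps to mercapturates, 8 of 12 genes were higher and 4 lower, with a median of 0.26 (0.36 without control 2), and 0 passed. The dipeptidase Dpep1 differed by 0.77, the efflux pump Abcc3 by 0.50, the cysteine conjugate lyase Kyat1 by 0.25 and the aminoacylase Acy1 by -0.53. Without control 2 these 4 differed by 0.36, 0.17, 0.37 and -0.24. Of 11 regulators, 5 were higher and 6 lower, with a median of -0.05 (-0.10 without control 2), and 0 passed. Cul3 and Keap1, which mark NRF2 for degradation, differed by 0.12 and -0.05, the NRF2 competitor Bach1 by -0.69 and the NRF2 partner Mafg by -0.53. Without control 2 these 4 differed by 0.04, -0.05, -0.80 and 0.02. Nfe2l2, which encodes NRF2, was chosen after its values were seen. Its brightest probe measured 4.87, 2.27 and 5.20 in control and 5.38, 4.90 and 4.51 in KO. The difference of 0.82 became -0.10 without control 2. Its second probe was dim, at the floor on control 1 and KO 3, and differed by 0.09, or by 0.51 without control 2.

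**Figure D4:**
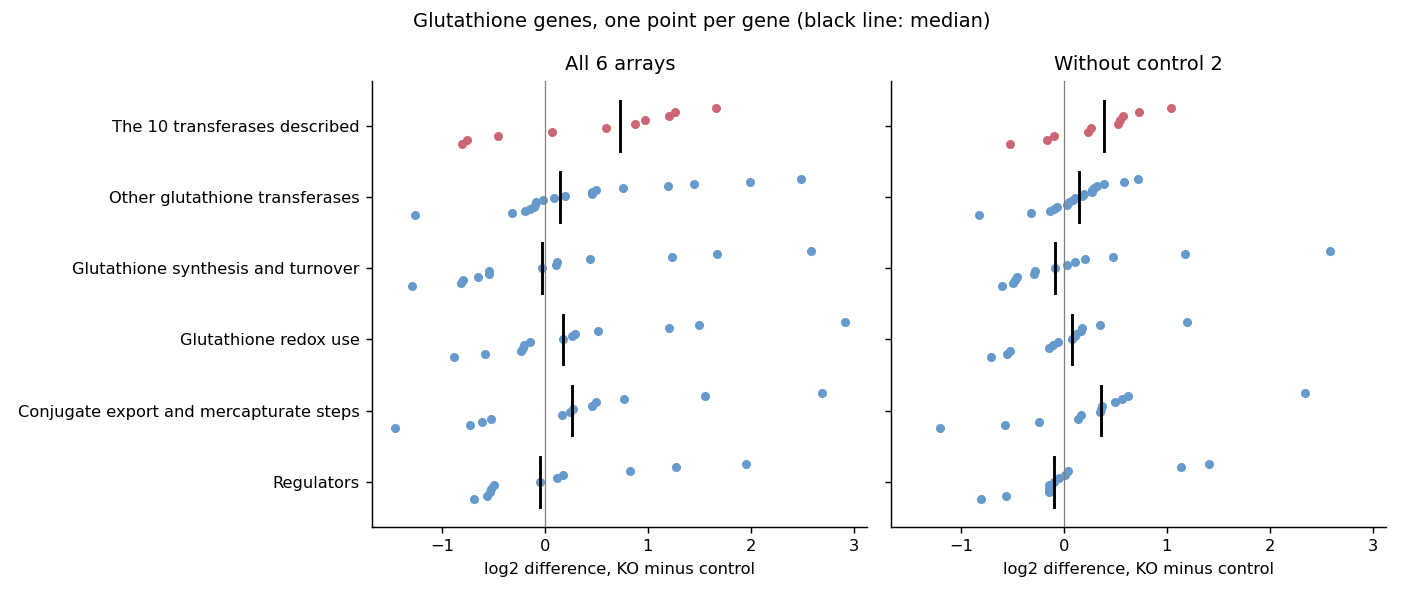
Log2 difference, KO minus control, 1 point per gene (its brightest probe), for the 10 transferases described (red) and 5 lists of other glutathione genes (blue), from all 6 arrays on the left and without control 2 on the right; black lines are medians. The median of the 10 moves from 0.73 to 0.39 and lies above 0 in both panels, with points on both sides of 0 in every list.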

How the data were processed

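The values were the authors' deposited normalized intensities on a linear scale. Software and background correction were not given in the sources used here. All arrays share 1 median (3.82) and maximum (16715), and values stop at a floor of 1. The share of probes at that floor ran from 33.5% to 41.6%, so the arrays do not share 1 whole distribution. Another table with 12 columns of unnormalized values and detection p-values was not used, since its column names match no label. Intensities were log2 transformed without offset. Probes were named by the platform annotation (34885 with 1 symbol, 18 with several, 10378 with none). A filter at the 40th percentile of the mean (0.96 on the log2 scale) kept 27168 probes, each its own feature. A bright probe has a mean above the 70th percentile (3.92). KO and control were compared with limma 3.58.1 in R 4.3.3 (lmFit and eBayes, 2-sided, Benjamini-Hochberg over all 27168 probes, threshold 0.05), which was tested on simulated data. Errors of means are SDs, errors and 95% intervals of differences are limma's, and all differences are KO minus control. Probe brightness served only to choose probes and genes to name, not to compare levels between genes. The number of arrays limits the precision. The 10 genes, the other lists and the comparisons were chosen with earlier results of these data known. All 10 genes are named with all probes, and from each further list the 4 brightest, with other names marked as chosen later. Genes of the further lists are given by their brightest probe unless stated. Other probes of a gene can differ from it in size or direction, as for Mgst3 (-0.10 and 0.78) and Kyat1 (0.25, 1.65 and -1.65). Alternatives were another filter, offset, normalization, weighting, probe summary and leaving out each array. No slide is given, so no batch could be tested.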

Additional observations from a re-analysis of the deposited data

How the results depend on the processing

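Of 255 differences of the 10 genes' probes computed under 16 alternatives, 246 kept their direction, none passed the threshold, and limma's adjusted p lay between 0.648 and 1. The dim second Gsta3 probe (-0.07) became 0.69 without control 2, 0.59 without KO 1, 0.16 without KO 3, 0.0072 with an offset of 16, 0.035 with cyclic loess and 0.76 with array quality weights, and ranged from -0.97 to 0.69 over left-out arrays. The brighter Gstm2 probes ranged from -0.086 to 0.26 and from -0.12 to 0.24, below 0 only without control 3. Gstm1 became -0.38 in an alternative chosen after seeing the data, the mean of a gene's probes, where its dim probe weighs in. Over left-out arrays Gstp1 ranged from 0.55 to 1.61, Gsto1 from 0.23 to 1.87, Gstt1 from 0.52 to 2.45 and Gsta3 from 0.35 to 1.23. Over all probes 0 passed (1192 at an unadjusted p under 0.05), and 0 over left-out arrays, while 18 passed without the filter on dim probes, none of them of these genes. With the replicate block 0 probes passed in all and 0 of these genes, and the block changed no call. The labels give same-numbered arrays nothing in common but the number. Their deviations over all probes from the group means correlated at 0.16, -0.09 and -0.01, and control 2 correlated best with KO 3 (0.14). The array quality weight was 0.188 for control 2 and 1.24 to 1.87 for the others. Background correction of the unnormalized table was not run, since its columns could not be tied to samples.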
